A study of Mus musculus with 40 samples.

Results

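The comparison described here sets rapamycin-treated TSCmKO muscle at 9 months (9mTSCmKO+RM) against untreated control muscle of the same age (9mCON), 10 of the 40 libraries of the series, with 5 libraries in each group. The members were found from the group labels and the column names of the count table. Both groups carried the strain label Tsc1tm1Djk/J and were of post natal month 9. TSCmKO mice lacked Tsc1 in skeletal muscle from a constitutive, muscle-specific knockout, whereas controls were littermates with Tsc1 fl/fl alleles and no Cre recombinase. Rapamycin (+RM) was given by intraperitoneal injection for 3 days at 4 mg per kg per the labels, and mice without +RM received vehicle. The text of the study gives a higher daily dose, so the dose is uncertain. RNA was from whole extensor digitorum longus (EDL), a fast hindlimb muscle, with each library from a separate mouse according to the study. The 5 vehicle-treated TSCmKO libraries (9mTSCmKO) and the 5 rapamycin-treated control libraries (9mCON+RM) of the same age serve as further comparisons. Since 9mTSCmKO+RM and 9mCON differ in genotype and in treatment, the parts of each cannot be told apart from that contrast alone.

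TSC1 and TSC2 form a complex that restrains mTORC1, a kinase complex that promotes protein synthesis, ribosome production, glycolysis and lipid synthesis and holds back autophagy. Without TSC1 in muscle fibers, mTORC1 stays active even in fasting, and TSCmKO mice develop a late-onset myopathy. Rapamycin binds FKBP12 and inhibits mTORC1, leaving the Tsc1 deletion in place. The question addressed was which transcripts of TSCmKO muscle at 9 months still differed from control after a short treatment, and which had moved past the control level.

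Total estimated counts were 12234422 to 19535160 per library in 9mCON and 13981064 to 18667327 in 9mTSCmKO+RM, and replicates correlated with r = 0.959 to 0.990 across genes within these 2 groups (0.934 to 0.992 within the groups of the series, lowest in 9mTSCmKO). Levels are CPM, counts scaled to a common library size with TMM factors, and are compared between groups for 1 gene and never between genes. Of 22844 genes in the table, 13543 reached 1 CPM in at least 5 libraries and were tested. Markers of skeletal muscle identified the tissue in both groups: Acta1, Tnnt3, Ckm, Pvalb and Myh4 lay among the 15 most abundant genes by TPM (a unit scaled by transcript length) in each of the 10 libraries. Some control libraries stood apart. The summed level of the 8 erythroid markers tested was 7090 CPM in 9mCON replicate 1 and 356 to 1280 CPM in the other 9mCON libraries, and that of the 14 tendon fibroblast markers tested was 1520 CPM in 9mCON replicate 5 and 1110 CPM in replicate 1, against 690 to 836 CPM in replicates 2 to 4. Counts that rest on these libraries are also given without replicates 1 and 5, an alternative chosen after seeing the data. In whole muscle, fewer cells of a type and less RNA per cell cannot be told apart.

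Tsc1 (chr2:28641228-28691167, plus strand in GRCm38), the deleted gene, was at 51.3, 62, 92.3, 89.7 and 122 CPM in 9mCON and at 17.8, 18.8, 25.7, 19.6 and 19.6 CPM in 9mTSCmKO+RM. All knockout values lay below all control values (log2 fold change -2.04 ± 0.17 SE, adjusted p = 1.5e-11). It was at 28.6 ± 4.34 CPM (mean ± SD, n = 5) in 9mTSCmKO and 79.5 ± 5.63 CPM in 9mCON+RM.

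After 3 days of rapamycin, 4318 of the 13543 genes (31.9%) differed from 9mCON at an adjusted p under 0.05 (edgeR), of which 2130 (15.7% of genes tested) were higher and 2188 (16.2%) were lower. Counts of gene list members given below for this contrast are to be read against these shares of all genes. A change of at least 2-fold was met by 483 of the higher and 608 of the lower genes. The values of the 5 libraries of each group did not overlap for 2278 genes (16.8%). The vehicle-treated knockout differed from the same 9mCON libraries in 5133 genes (37.9%), 2580 higher and 2553 lower. When 9mTSCmKO+RM was set against 9mCON+RM instead, so that both groups had received the drug, 2795 genes passed (20.6%), 1531 higher and 1264 lower. The share of higher genes among those past the threshold was 49.3% with edgeR and 61.8% with limma on log2(TPM + 1) for 9mTSCmKO+RM against 9mCON, 50.3% and 61.3% for 9mTSCmKO against 9mCON, and 54.8% and 77.2% for 9mTSCmKO+RM against 9mCON+RM. The median log2 fold change of all genes tested was -0.03, -0.02 and -0.01 in these 3 contrasts with edgeR.

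The 4318 genes fell into 3 classes, which are counts without a test because the contrasts behind them share libraries. There were 2230 genes (51.6% of the 4318 and 16.5% of all genes tested) that had also passed the threshold in the same direction in 9mTSCmKO against 9mCON and are called left abnormal, 1084 higher and 1146 lower. A further 1185 genes (27.4% of the 4318 and 8.75% of all genes tested), 720 higher and 465 lower, are called overshoot: 9mTSCmKO+RM differed from both 9mCON and 9mTSCmKO in the same direction, whereas the 9mTSCmKO mean lay on the other side of 9mCON or within 0.25 log2 units of it. The remaining 903 genes met neither definition. Of the left abnormal genes, 1408 (63.1%) also differed in the same direction from 9mCON+RM, against 308 (26.0%) of the overshoot genes. Over all genes tested, 11.3% were higher and 9.33% lower than in 9mCON+RM. The gap between the classes follows in part from their definitions and the shared libraries, so no conclusion is drawn from it.

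Most left abnormal genes did not pass in 9mTSCmKO+RM against 9mTSCmKO, but the class by definition leaves out genes that had returned to control. The shares that follow therefore do not measure the response to the drug. Of the 2230, 387 (17.4%) passed the threshold toward control in 9mTSCmKO+RM against 9mTSCmKO, 171 (7.67%) passed it away from control and 1672 (75.0%) did not pass. That contrast called 4410 genes in all (32.6%), 2135 higher (15.8%) and 2275 lower (16.8%). Seen from the vehicle-treated knockout, 2230 of its 5133 altered genes (43.4%) passed in the same direction after rapamycin, 2761 (53.8%) did not pass and 142 (2.77%) passed in the opposite direction.

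Sarcomere and cytoskeleton genes were more often higher than lower. Of 41 tested Z-disc, costamere and intermediate filament genes, 20 were higher in 9mTSCmKO+RM than in 9mCON and 6 were lower, with a median log2 fold change of 0.41, and 19 of the 26 were left abnormal. Krt18 (chr15:102028180-102032027, plus strand), a keratin of intermediate filaments, was at 0.472, 0.0755, 0.162, 0.273 and 0.258 CPM in 9mCON and 8.22, 18, 14.2, 25.7 and 16.5 CPM in 9mTSCmKO+RM. Control libraries held 1 to 8 counts of Krt18, and no value overlapped (log2 fold change 5.95 ± 0.41 SE, adjusted p = 1.12e-13). It was at 19.7 ± 9.99 in 9mTSCmKO and 0.454 ± 0.222 CPM in 9mCON+RM, so that the treated and untreated knockout did not differ detectably (log2 fold change -0.25, adjusted p = 0.507).

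Ankrd1, a stress-responsive ankyrin repeat protein bound to titin, was at 23.9, 35.5, 29, 32.1 and 24.8 CPM in 9mCON and 373, 513, 681, 847 and 871 CPM in 9mTSCmKO+RM. The groups were far apart (log2 fold change 4.50 ± 0.53 SE, adjusted p = 4.64e-08), and in 9mCON+RM 4 libraries lay at 32.1 to 57.2 CPM and replicate 3 at 261 CPM. Igfn1, a Z-disc protein of skeletal muscle, was at 79.1, 37.7, 90.4, 37.8 and 36.8 CPM in 9mCON and 465, 780, 754, 910 and 476 CPM in 9mTSCmKO+RM, again without overlap (log2 fold change 3.59 ± 0.40 SE, adjusted p = 1.05e-08). Csrp3, the muscle LIM protein, was at 18.8, 30.6, 13.2, 35.5 and 27.7 CPM in 9mCON and 161, 106, 112, 235 and 126 CPM in 9mTSCmKO+RM, without overlap (log2 fold change 2.55 ± 0.54 SE, adjusted p = 0.000396). Against 9mCON+RM, Igfn1 passed (log2 fold change 3.39, adjusted p = 4.27e-08) and Csrp3 did not (log2 fold change 1.38, adjusted p = 0.0538), with 9mCON+RM means of 64.7 ± 24.4 and 57 ± 61.4 CPM. Nes, the intermediate filament protein nestin, was 214 ± 67.1 CPM against 65.7 ± 12.3 CPM (log2 fold change 1.70 ± 0.23 SE, adjusted p = 2.29e-07).

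**Figure D1:**
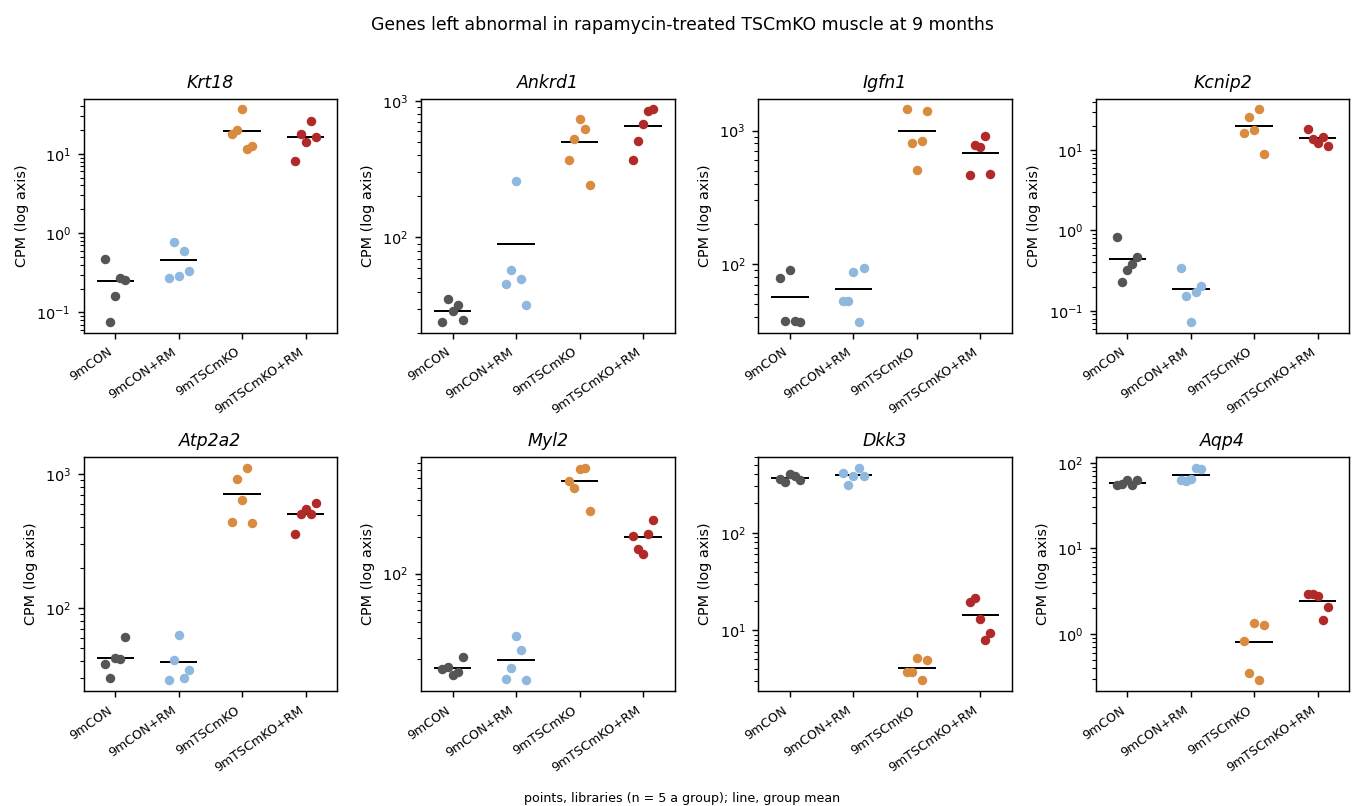
CPM on a log axis of 8 genes in each of the 5 libraries of 9mCON, 9mCON+RM, 9mTSCmKO and 9mTSCmKO+RM; points are libraries and lines are group means. Krt18, Ankrd1, Igfn1, Kcnip2, Atp2a2 and Myl2 were higher, and Dkk3 and Aqp4 lower, in both knockout groups than in any 9mCON library.

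Myosin and fiber-type genes, a list that mixes slow and fast ones, were more often higher than lower. Of 31 tested myosin and fiber-type genes, 12 were higher and 3 lower (median 0.46). Myl2, the regulatory light chain of slow and cardiac muscle, was at 16.7, 17.2, 15, 15.9 and 20.9 CPM in 9mCON and 201, 158, 145, 210 and 271 CPM in 9mTSCmKO+RM. It lay at 565 ± 167 CPM in 9mTSCmKO, so that rapamycin-treated muscle held less (log2 fold change -1.52 ± 0.44 SE, adjusted p = 0.00745 within the knockout) but still more than control (log2 fold change 3.52 ± 0.48 SE, adjusted p = 6.66e-07). The slow myosin Myh7 was at 35.6 ± 20.2 CPM in 9mCON and 185 ± 124 CPM in 9mTSCmKO+RM (log2 fold change 2.38, adjusted p = 0.000566), the slow troponin Tnni1 differed by 2.76 on the log2 scale (adjusted p = 0.000599), and its partner Tnnt1 by 2.31 (adjusted p = 0.00119). Of the 31-mers of Myh7, 22.5% are shared with Myh6, so their split is uncertain.

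Calcium handling genes moved in both directions. Atp2a2 (chr5:122453513-122502225, minus strand), the slow-twitch and cardiac calcium pump SERCA2, was at 38, 29.7, 42.1, 41.2 and 60.9 CPM in 9mCON and 356, 505, 546, 499 and 611 CPM in 9mTSCmKO+RM. All treated knockout libraries exceeded all controls by a wide margin (log2 fold change 3.57 ± 0.36 SE, adjusted p = 1.03e-09), and the 9mTSCmKO mean was 711 ± 304 CPM. The SERCA inhibitor Sln rose from 1.5 ± 0.435 to 8.86 ± 2.08 CPM (log2 fold change 2.56, adjusted p = 3.4e-08), whereas Mrln, which encodes the SERCA inhibitor myoregulin, fell from 35 ± 18.4 to 6.52 ± 2.68 CPM (log2 fold change -2.43, adjusted p = 5.19e-08). Casq1, the calcium-binding protein of the sarcoplasmic reticulum, was at 3905 ± 579.9 CPM in 9mCON and 1680 ± 346 CPM in 9mTSCmKO+RM (log2 fold change -1.22, adjusted p = 2.19e-08). The calcium buffer parvalbumin (Pvalb) fell from 16124 ± 4910 to 7379 ± 1871 CPM (log2 fold change -1.13, adjusted p = 3.51e-05), although the values of the groups overlapped. Of 36 tested genes of this list, 7 were higher (19.4%, against 15.7% of all genes) and 11 lower (30.6%, against 16.2%), and without 9mCON replicates 1 and 5 the higher count was 4.

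Rcan1, which encodes an inhibitor of the calcium-dependent phosphatase calcineurin, was at 37, 76.1, 76, 81.3 and 64.7 CPM in 9mCON and 233, 323, 357, 331 and 381 CPM in 9mTSCmKO+RM. Every treated knockout value exceeded the highest control value (log2 fold change 2.28 ± 0.25 SE, adjusted p = 6.62e-09). It lay at 101 ± 11.7 in 9mTSCmKO and 88.4 ± 28 CPM in 9mCON+RM, and differed from both (log2 fold change 1.69, adjusted p = 1.65e-06 and 1.88, adjusted p = 3.27e-07).

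Heat shock proteins, chaperones that hold or refold damaged proteins, were more often higher than lower: 14 of 29 tested rose and 3 fell (median 0.41), and 12 of the 17 were left abnormal. Hspb7, a small heat shock protein of striated muscle, was at 349.8 ± 89.4 CPM in 9mCON and 2230 ± 252 CPM in 9mTSCmKO+RM (log2 fold change 2.67 ± 0.27 SE, adjusted p = 7.28e-10). Hspb1, the small heat shock protein also called HSP25, was at 90.8, 109, 73.9, 111 and 78.3 CPM in 9mCON and 321, 267, 315, 335 and 435 CPM in 9mTSCmKO+RM, without overlap (log2 fold change 1.85 ± 0.24 SE, adjusted p = 1.93e-07). Dnaja4, an HSP70 partner, was at 110, 139, 152, 133 and 115 CPM in 9mCON and 266, 286, 255, 349 and 349 CPM in 9mTSCmKO+RM, which did not overlap either (log2 fold change 1.21 ± 0.15 SE, adjusted p = 4.5e-08), but 43.2% of its 31-mers are shared with the overlapping gene Wdr61, so its value is uncertain. Hspb7, Hspb1 and Dnaja4 lay at 416 ± 158, 104 ± 53.5 and 148 ± 15.3 CPM in 9mCON+RM and were higher in 9mTSCmKO+RM than there too (log2 fold changes 2.42, 1.69 and 1.02).

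Promoter windows from RefSeq (250 bases before and 50 after each start, GRCm38.p6) were available for 22 of the 29 heat shock genes tested and for 10375 of all 13543 genes. The heat shock type motif GAANNTTC, which reads the same on both strands, was in at least 1 window of 12 of the 22 (54.5%) and of 7.04% of the 10375. Of these 12 genes, 7 were higher in 9mTSCmKO+RM than in 9mCON, 1 was lower and 4 did not pass. Over the whole list, 14 of 29 were higher (48.3%). The 12 genes do not hold 12 separate sites, since a neighbouring pair shares the same stretch. The match is a description of the letters, not of a bound site. To show the motif in place, the sequences around it in 2 of the 7, chosen after their values were seen, are given 5′ to 3′ with the motif in capitals. That of Hspb1 is chr5:135887772-135887859 and that of Dnajb6, an HSP70 partner of the Z-disc, is chr5:29735841-29735870, both on the plus strand.
Hspb1: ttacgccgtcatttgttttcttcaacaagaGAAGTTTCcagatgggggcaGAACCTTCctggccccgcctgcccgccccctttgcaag
Dnajb6: ctcagctccgaGAATCTTCcggaacgctag
Hspb1 holds 2 copies and Dnajb6 holds 1. The Dnajb6 level was 146 ± 13.6 in 9mCON, 288 ± 24.1 in 9mTSCmKO and 197 ± 19.7 CPM in 9mTSCmKO+RM (log2 fold change 0.43 ± 0.09 SE, adjusted p = 0.000379 against 9mCON).

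Several of the large rises were in genes at about 1 CPM or less in 9mCON, among them Kcnip2, Rab15 and Mdfi. Kcnip2, a calcium-sensing subunit of voltage-gated potassium channels, was at 0.827, 0.226, 0.325, 0.382 and 0.465 CPM in 9mCON and 18.4, 13.9, 12.2, 14.4 and 11.3 CPM in 9mTSCmKO+RM. The lowest treated knockout value was above the highest control value (log2 fold change 4.92 ± 0.41 SE, adjusted p = 8.73e-12), and the 9mTSCmKO mean was 20.2 ± 9.01 CPM.

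Rab15, a GTPase of endosome recycling, was at 1.17 ± 0.281 CPM in 9mCON and 25.5 ± 4.32 CPM in 9mTSCmKO+RM (log2 fold change 4.46, adjusted p = 1.91e-12) and at 24 ± 8.92 CPM in 9mTSCmKO. Mdfi, an inhibitor of MyoD family transcription factors, had fallen from 22.3 ± 9.31 CPM in 9mTSCmKO to 6.32 ± 1.29 CPM, against 0.672 ± 0.345 CPM in 9mCON (log2 fold change 3.20, adjusted p = 1.31e-08 against 9mCON). Rrad, a Ras-like GTPase of muscle, differed by 3.17 on the log2 scale (adjusted p = 6.47e-07). Myog, the myogenic transcription factor that responds to denervation, was at 1.61 ± 0.885 CPM in 9mCON and 7.74 ± 3.62 CPM in 9mTSCmKO+RM (log2 fold change 2.30, adjusted p = 1.34e-05), with a 9mTSCmKO mean of 3.16 ± 1.46 CPM. Gm11967 was at 0.509 ± 0.35 CPM in 9mCON and 5.82 ± 1.13 CPM in 9mTSCmKO+RM (log2 fold change 3.42, adjusted p = 1.45e-07). Among genes with at least 5 CPM in the higher group and no overlap of the groups, the largest fitted rise was that of Gm26870 (6.50), annotated as a lincRNA (chr9:3000282-3038313, minus strand), at 81.2 ± 66.8 CPM in 9mCON and 7328 ± 1933 CPM in 9mTSCmKO+RM. Without 9mCON replicate 1 its log2 fold change was 7.15. In 9mTSCmKO it ranged from 3700 to 39100 CPM. Its value is uncertain because the transcript set behind the table is not certain, a limit that holds for every gene.

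Some amino acid uptake and one-carbon genes were further left abnormal rises, although the amino acid transporter list was more often lower than higher. Slc7a5, the light chain of the LAT1 leucine transporter, was at 3.6, 2.26, 1.79, 3.33 and 3.15 CPM in 9mCON and 6.65, 8.53, 9.14, 12.4 and 11 CPM in 9mTSCmKO+RM, without overlap (log2 fold change 1.74 ± 0.20 SE, adjusted p = 2.04e-08). Slc1a1, a glutamate transporter, differed by 1.98 on the log2 scale (adjusted p = 1.43e-09), but 31.4% of its 31-mers are shared with the overlapping gene 4430402I18Rik. Mthfd2, the mitochondrial one-carbon enzyme, was 3.85 ± 0.991 in 9mCON, 35.8 ± 4.56 in 9mTSCmKO and 13.5 ± 3.28 CPM in 9mTSCmKO+RM, a fall within the knockout (log2 fold change -1.41, adjusted p = 3.04e-06) that ended above control (log2 fold change 1.80, adjusted p = 1.11e-07). Over the amino acid transporter list, 5 of 30 were higher (16.7%, against 15.7% of all genes) and 8 lower (26.7%, against 16.2%), with a median of -0.15. Metallothioneins and zinc transporters had 3 of 22 higher (13.6%) and 5 lower (22.7%). The metallothionein Mt2, a zinc-binding protein, was at 1.71, 4.07, 2.11, 3.44 and 3.46 CPM in 9mCON and 8.29, 8.01, 12.1, 21 and 12.7 CPM in 9mTSCmKO+RM (log2 fold change 2.06 ± 0.58 SE, adjusted p = 0.00635). In 9mCON+RM, Slc7a5 was at 3.06 ± 0.654 and Mt2 at 2.92 ± 1.57 CPM, and both passed against that group as well (log2 fold changes 1.65 and 2.09).

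Insulin and mTOR pathway genes were about as often higher as lower. Of 36 TSC and mTOR complex genes 7 were higher and 7 lower (19.4% each, median -0.08). Of 32 insulin and FoxO genes 8 were higher (25%) and 7 lower (21.9%), with a median of 0.12. Of all genes, 15.7% were higher and 16.2% lower. Tbc1d4, which controls glucose transporter traffic, was higher by 1.03 on the log2 scale (adjusted p = 0.00256). Sesn3 and Sesn2, sestrins that restrain mTORC1, were higher by 1.14 (adjusted p = 2.96e-05) and 0.83 (adjusted p = 0.000947) on the log2 scale. Ddit4l, another inhibitor of mTORC1, fell to 112 ± 28 CPM from 350.0 ± 82.3 CPM in 9mCON and 284 ± 38.4 CPM in 9mTSCmKO (log2 fold change -1.64, adjusted p = 1.96e-06 against 9mCON). Pdk3, a kinase that inhibits pyruvate dehydrogenase, was at 0.902 ± 0.405 CPM in 9mCON and 5.38 ± 1.05 CPM in 9mTSCmKO+RM (log2 fold change 2.56, adjusted p = 7.99e-10).

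Dkk3 and Aqp4 had the deepest falls among genes with at least 5 CPM in the higher group and no overlap of the groups, and both were low in the vehicle-treated knockout too. Dkk3 (chr7:112116017-112159057, minus strand), a secreted glycoprotein of the Dickkopf family, was at 358, 332, 406, 379 and 350 CPM in 9mCON and 19.4, 21.2, 13.1, 7.86 and 9.39 CPM in 9mTSCmKO+RM. The highest treated knockout value was far under the lowest control value (log2 fold change -4.69 ± 0.30 SE, adjusted p = 4.95e-14). It was 4.12 ± 0.888 CPM in 9mTSCmKO, below its level in 9mTSCmKO+RM (log2 fold change 1.78, adjusted p = 1.44e-05). Aqp4, the water channel of fast fibers, was at 55.5, 55.9, 62.5, 55 and 63 CPM in 9mCON and 2.9, 2.94, 2.77, 1.45 and 2.07 CPM in 9mTSCmKO+RM, also without overlap (log2 fold change -4.58 ± 0.26 SE, adjusted p = 1.26e-15), and was likewise higher in 9mTSCmKO+RM than in 9mTSCmKO (log2 fold change 1.53, adjusted p = 0.000377).

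Fgfbp1, a carrier that releases fibroblast growth factors, was at 7.85, 8.68, 9.83, 6.6 and 5.47 CPM in 9mCON and 1.41, 0.807, 0.489, 0.276 and 0.366 CPM in 9mTSCmKO+RM, without overlap (log2 fold change -3.54 ± 0.41 SE, adjusted p = 1.6e-08). Nrep, a neuronal regeneration-related protein, was 169 ± 32.5 in 9mCON, 30.8 ± 6.2 in 9mTSCmKO and 16.8 ± 1.8 CPM in 9mTSCmKO+RM (log2 fold change -3.33, adjusted p = 4.95e-14 against 9mCON), and lower in 9mCON+RM too, at 52.7 ± 7.89 CPM. Glb1l2, related to beta-galactosidase, and Fam174b fell by 3.01 and 2.84 on the log2 scale (adjusted p = 2.4e-06 and 4.47e-09).

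Among 28 tested ion channel and aquaporin genes, 9 were lower and 3 higher. Clcn1, the chloride channel that stabilises the resting membrane of fibers, was at 233, 220, 260, 266 and 271 CPM in 9mCON and 150, 137, 146, 124 and 129 CPM in 9mTSCmKO+RM, all below control (log2 fold change -0.87 ± 0.10 SE, adjusted p = 2.8e-08) and below 9mCON+RM at 238 ± 18.6 CPM (log2 fold change -0.80, adjusted p = 2.16e-07). The sodium channel subunit Scn4b fell by 0.89 on the log2 scale (adjusted p = 4.89e-07). Kcnn3, a calcium-activated potassium channel known to return in denervated muscle, was at 7.7 ± 2.58 CPM in 9mCON and 18.5 ± 3.95 CPM in 9mTSCmKO+RM (log2 fold change 1.25, adjusted p = 1.42e-05), with overlap between the groups.

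Secreted factors were more often lower (13 of 29, with 6 higher, median -0.62). Ostn, the bone- and muscle-acting peptide osteocrin, was at 36.5 ± 7.61 CPM in 9mCON and 5.93 ± 1.21 CPM in 9mTSCmKO+RM (log2 fold change -2.62, adjusted p = 4.62e-06), and Apln, the peptide apelin, at 2.96 ± 0.704 CPM in 9mCON and 0.588 ± 0.36 CPM in 9mTSCmKO+RM (log2 fold change -2.30, adjusted p = 0.000124). Cxcl10, an interferon-induced chemokine, went the other way, at 0.177, 0.226, 0.244, 0.491 and 0.62 CPM in 9mCON and 3.52, 4.78, 5.93, 1.79 and 7.99 CPM in 9mTSCmKO+RM. The treated knockout lay above all controls (log2 fold change 3.69 ± 0.68 SE, adjusted p = 5.36e-05), whereas 9mTSCmKO was at 0.566 ± 0.665 and 9mCON+RM at 1.12 ± 1.07 CPM.

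Of 39 genes of myostatin, activin and BMP signalling, 13 were lower and 4 higher. Mstn, myostatin, which limits muscle growth, was at 48.7, 68, 64.1, 77.3 and 69.9 CPM in 9mCON and 33.3, 31.8, 24.9, 30.8 and 21.6 CPM in 9mTSCmKO+RM, without overlap (log2 fold change -1.20 ± 0.21 SE, adjusted p = 2.08e-05), and at 29.8 ± 7.19 CPM in 9mTSCmKO. The receptor Bmpr1b fell by 1.63 (adjusted p = 1.52e-05). Fst, the myostatin inhibitor follistatin, was 8.34 ± 1.51 in 9mCON, 4.96 ± 1.72 in 9mTSCmKO and 15 ± 4.76 CPM in 9mTSCmKO+RM (log2 fold change 0.85, adjusted p = 0.0124), which missed the threshold when replicate 5 of 9mTSCmKO+RM was left out (adjusted p = 0.0511). Without 9mCON replicates 1 and 5 the lower count of this list was 8 and its median was 0.01 in place of -0.23.

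Genes that moved past control after rapamycin, or further from it, are described next. Tfrc (chr16:32608920-32632794, plus strand), the transferrin receptor that imports iron, was at 105, 177, 233, 221 and 246 CPM in 9mCON and 21.7, 39.5, 28.2, 34.1 and 25.3 CPM in 9mTSCmKO+RM. It was 178 ± 35.3 in 9mTSCmKO and 162 ± 51.3 CPM in 9mCON+RM, so that 9mTSCmKO+RM alone held the low values (log2 fold change -2.72 ± 0.25 SE, adjusted p = 1.31e-10 against 9mCON, log2 fold change -2.44 ± 0.25 SE, adjusted p = 1.76e-09 against 9mCON+RM). Fth1, the ferritin heavy chain that stores iron, was not an overshoot but a left abnormal gene. It was 2189 ± 671 in 9mCON, 4894 ± 964 in 9mTSCmKO and 3681 ± 915 CPM in 9mTSCmKO+RM (log2 fold change 0.75, adjusted p = 0.000691 against 9mCON, and -0.41, adjusted p = 0.0573 against 9mTSCmKO).

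Nmrk2, a muscle kinase that makes NAD from nicotinamide riboside, was at 122, 420, 266, 217 and 153 CPM in 9mCON and 26.1, 43, 33.8, 45.2 and 35.9 CPM in 9mTSCmKO+RM. No value overlapped (log2 fold change -2.68 ± 0.41 SE, adjusted p = 3.48e-06), although the 9mTSCmKO mean was 391 ± 188 CPM. It was also low in 9mCON+RM, at 74.1 ± 33.7 CPM, from which 9mTSCmKO+RM did not differ at the threshold (log2 fold change -1.01, adjusted p = 0.0609). Of its 31-mers, 18.8% are shared with other genes.

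The other overshoot falls with the largest change were the phosphatase gene Dupd1 (log2 fold change -1.95, adjusted p = 5.35e-07), the arrestin domain gene Arrdc2 (log2 fold change -1.91, adjusted p = 0.00371), the stress-response gene Gadd45g (log2 fold change -1.69, adjusted p = 0.00292), the transcription factors Tfcp2l1 (log2 fold change -1.68, adjusted p = 0.0024) and Arnt2 (log2 fold change -1.67, adjusted p = 3e-07) and the GTPase gene Arl4d (log2 fold change -1.44, adjusted p = 0.000665). Gadd45g was at 27.8, 78.5, 50.4, 41.4 and 43.2 CPM in 9mCON and 21.9, 13.9, 13.9, 12.3 and 12.8 CPM in 9mTSCmKO+RM. All treated knockout values were under the controls, and 9mCON+RM lay at 13.7 to 20.5 CPM. Against 9mCON+RM, Arnt2, Tfcp2l1 and Arrdc2 still passed (log2 fold change -1.22, -1.83 and -1.48), whereas Dupd1, Gadd45g and Arl4d did not (adjusted p = 0.106, 0.691 and 0.173).

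The 8 largest overshoot rises among genes with at least 5 CPM in the higher group and no overlap with 9mCON had 9mTSCmKO+RM means of 6.7 to 58.9 CPM. Arvcf, a catenin of cell junctions, was at 12.5, 14, 16.6, 16.5 and 21.5 CPM in 9mCON and 46.7, 61.8, 72.9, 56 and 57.3 CPM in 9mTSCmKO+RM. Treated knockout libraries were above all control libraries (log2 fold change 1.86 ± 0.14 SE, adjusted p = 1.91e-12), 9mTSCmKO lay at 15.8 ± 2.52 CPM and 9mCON+RM at 22.8 ± 3.09 CPM. Bex1, expressed in regenerating muscle, was at 10.3 ± 3.09 CPM in 9mCON and 37.7 ± 7.91 CPM in 9mTSCmKO+RM (log2 fold change 1.87, adjusted p = 6.22e-08), though 39.9% of its 31-mers are shared with related genes. The others were the metalloproteinase gene Adamts20 (log2 fold change 1.55, adjusted p = 1.03e-06), Tchp (log2 fold change 1.45, adjusted p = 2.04e-09), Mttp, which loads lipid onto lipoproteins (log2 fold change 1.38, adjusted p = 8.15e-07), 1700001O22Rik (log2 fold change 1.37, adjusted p = 0.00292) and the lincRNA genes Epb41l4aos (log2 fold change 2.01, adjusted p = 7.31e-06) and Gm40477 (log2 fold change 1.46, adjusted p = 0.000145). Epb41l4aos was 6.57 ± 3.39 CPM in 9mCON+RM and 6.7 ± 2.8 CPM in 9mTSCmKO+RM.

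**Figure D2:**
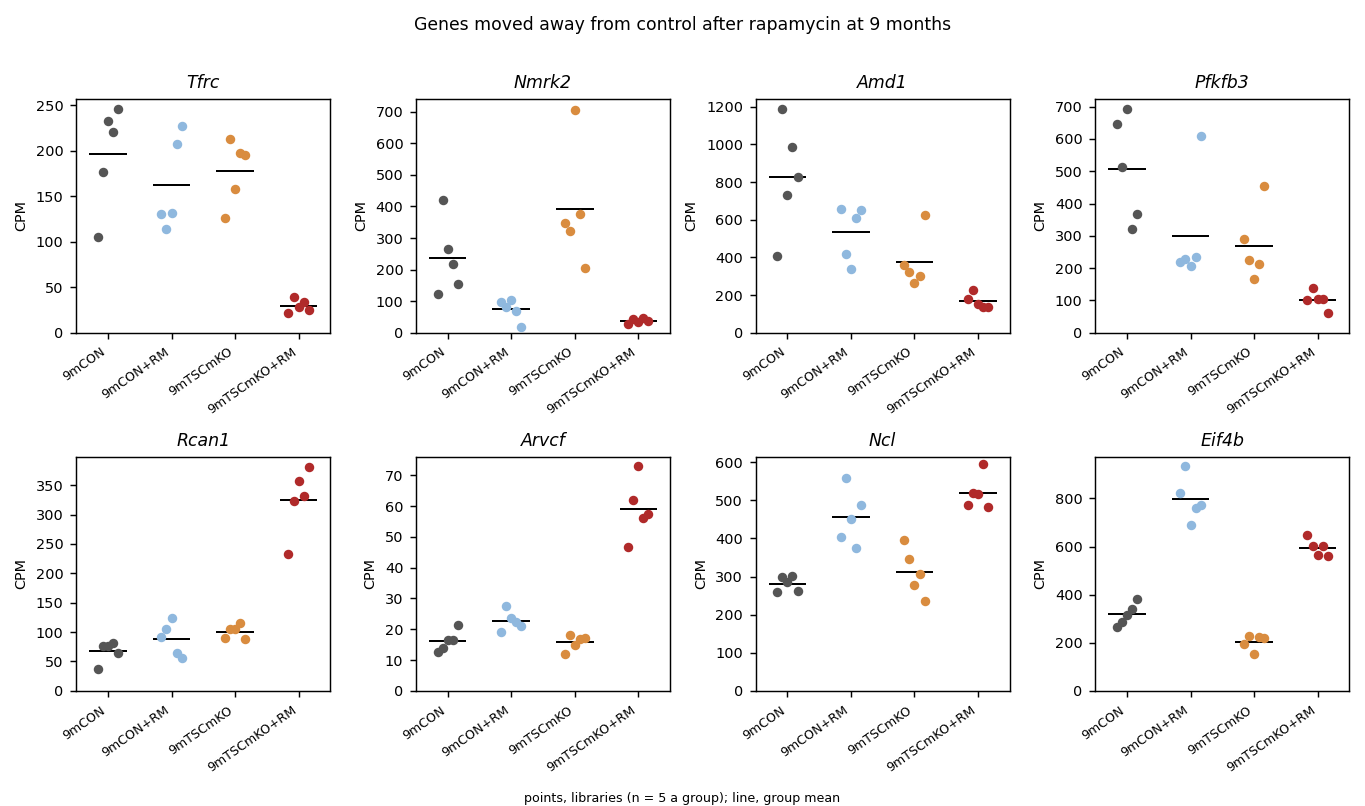
CPM from 0 of 8 genes in each of the 5 libraries of the 4 groups of 9 months; points are libraries and lines are group means. Tfrc, Amd1 and Pfkfb3 had all 5 values of 9mTSCmKO+RM under those of the other groups, Rcan1 and Arvcf had all above, Nmrk2 was low in both groups given rapamycin, and Ncl and Eif4b were high in both. Amd1 was left abnormal rather than overshoot, and Pfkfb3 and Rcan1 met neither definition.

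Ribosome biogenesis factors included many overshoot genes. Of 44 factors tested, 24 were higher in 9mTSCmKO+RM than in 9mCON and 1 was lower (median log2 fold change 0.40, against -0.03 over all genes), with 14 overshoot genes (8.75% of all genes were of this class). In 9mTSCmKO against 9mCON, 13 were higher (19.1% of all genes were) and 2 lower (18.9%). Against 9mCON+RM, 2 were higher (11.3% of all genes) and 3 lower (9.33%). Ncl, nucleolin, which acts in ribosomal RNA synthesis, was at 260, 298, 285, 302 and 263 CPM in 9mCON and 487, 518, 517, 596 and 482 CPM in 9mTSCmKO+RM. The groups did not overlap (log2 fold change 0.89 ± 0.13 SE, adjusted p = 1.79e-06), the 9mTSCmKO mean was 312 ± 61.5 CPM and the 9mCON+RM mean was 456 ± 72.6 CPM. Ddx21, a nucleolar RNA helicase, was at 36.7, 37.8, 55.5, 53.9 and 62.2 CPM in 9mCON and 90.1, 111, 122, 122 and 111 CPM in 9mTSCmKO+RM, also without overlap (log2 fold change 1.18 ± 0.14 SE, adjusted p = 2.82e-08). Rrp12 and Nop14, which process the small subunit, rose by 1.05 and 1.11 on the log2 scale (adjusted p = 2.33e-06 and 5.03e-10).

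Translation initiation and elongation factors were higher for 22 of 56 and lower for 2 (median 0.24). Against 9mCON+RM, 4 were higher (11.3% of all genes were) and 9 lower (9.33%), with a median of -0.07. Without 9mCON replicates 1 and 5, 16 were higher and 4 lower. Eif4b, an initiation factor regulated by mTORC1 through S6 kinase, was at 264, 288, 317, 339 and 384 CPM in 9mCON and 647, 603, 565, 601 and 559 CPM in 9mTSCmKO+RM. Treated knockout libraries lay above control (log2 fold change 0.90 ± 0.11 SE, adjusted p = 2.05e-08), while 9mTSCmKO was below it at 204 ± 30.6 CPM and 9mCON+RM was highest at 796 ± 90.5 CPM. The eIF3 subunits Eif3b and Eif3g rose by 1.0 and 0.82 on the log2 scale (adjusted p = 4.14e-10 and 1.81e-06), the start-codon factor Eif1 by 0.47 (adjusted p = 0.00123), and Eif5b by 0.95 (adjusted p = 0.000276).

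Aminoacyl-tRNA synthetases, which charge transfer RNAs, were higher for 12 of 23 and lower for 0, 7 of them overshoot genes (8.75% of all genes were). Against 9mCON+RM, 3 were higher and 1 lower (median 0.04). Vars, the valine enzyme, was at 40 ± 8.8 in 9mCON, 39.6 ± 5.47 in 9mTSCmKO, 72.5 ± 4.63 in 9mCON+RM and 86.2 ± 9.23 CPM in 9mTSCmKO+RM (log2 fold change 1.11, adjusted p = 7.14e-09 against 9mCON, and 0.25, adjusted p = 0.153 against 9mCON+RM). Eprs, Lars and Sars rose by 0.66, 0.54 and 0.52 (adjusted p = 0.00219, 0.0114 and 1.17e-05). Cytosolic ribosomal proteins did not share this pattern. Of 77 tested, 0 were higher and 2 lower, Rpl12 (log2 fold change -0.44, adjusted p = 0.0444) and Rps4x (log2 fold change -0.35, adjusted p = 0.0251), and both calls were lost without 9mCON replicate 2 (adjusted p = 0.228 and 0.126). Against 9mCON+RM, 19 of the 77 were lower and 0 higher (median -0.34).

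Polyamines are made from putrescine by enzymes that use decarboxylated S-adenosylmethionine. Amd1 (chr10:40287458-40302186, minus strand), which makes this donor, was at 406, 1190, 733, 988 and 828 CPM in 9mCON and 180, 225, 154, 139 and 136 CPM in 9mTSCmKO+RM. No values overlapped (log2 fold change -2.31 ± 0.27 SE, adjusted p = 2.73e-08). It was 375 ± 145 in 9mTSCmKO and 533 ± 147 CPM in 9mCON+RM, and 9mTSCmKO+RM was lower than both (log2 fold change -1.17, adjusted p = 0.000801 and -1.68, adjusted p = 9.71e-06). Smox, which oxidises spermine, was at 96, 177, 166, 152 and 145 CPM in 9mCON and 61.2, 85.3, 69.1, 55.7 and 49.9 CPM in 9mTSCmKO+RM, below control throughout (log2 fold change -1.20 ± 0.22 SE, adjusted p = 4.34e-05). Srm, spermidine synthase, was 6.8 ± 0.724 in 9mCON, 4.49 ± 1.69 in 9mTSCmKO and 10.8 ± 1.28 CPM in 9mTSCmKO+RM (log2 fold change 0.66, adjusted p = 0.00301 against 9mCON), and Azin1, an activator of polyamine synthesis, rose by 0.78 (adjusted p = 0.000194). Over the list, 5 of 19 genes were higher (26.3%, against 15.7% of all genes) and 4 lower (21.1%, against 16.2%).

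Glycolysis and glycogen genes were more often lower than higher (19 of 45, with 3 higher, median -0.28), and 14 were left abnormal. Pfkfb3, which makes the activator of phosphofructokinase, was at 647, 513, 693, 320 and 368 CPM in 9mCON and 102, 138, 103, 105 and 61.1 CPM in 9mTSCmKO+RM. All treated knockout values lay under control (log2 fold change -2.32 ± 0.45 SE, adjusted p = 0.000124), and 9mTSCmKO was at 269.8 ± 112 CPM. Pgam2, the muscle phosphoglycerate mutase, fell from 1915 ± 686 to 622 ± 217 CPM (log2 fold change -1.62, adjusted p = 1.28e-07). Fbp2, the muscle fructose bisphosphatase of gluconeogenesis, was 33.2 ± 11.2 in 9mCON, 5.65 ± 2.87 in 9mTSCmKO and 10.1 ± 1.24 CPM in 9mTSCmKO+RM (log2 fold change -1.71, adjusted p = 1.52e-05), and the glucose transporter Slc2a3 fell by 1.32 (adjusted p = 6.66e-07).

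Where respiratory chain genes differed from control after rapamycin, they were lower, by less than 1 log2 unit for those named. Of 36 respiratory complex I subunits tested, 12 were lower and 0 higher (median -0.37), against 2 lower and 0 higher in 9mTSCmKO (median -0.03). Complexes II to V had 11 of 43 lower and 0 higher (median -0.31). Against 9mCON+RM, 3 complex I and 1 complex II to V genes were lower (medians -0.16 and -0.13), where 9.33% of all genes were, and the medians of 9mCON+RM against 9mCON were -0.19 and -0.21. Ndufc2, a complex I subunit, was at 98.6 ± 35.2 CPM in 9mCON and 53.3 ± 11.9 CPM in 9mTSCmKO+RM (log2 fold change -0.89, adjusted p = 0.000369), and Ndufb2 and Ndufs1 fell by 0.72 and 0.65 (adjusted p = 0.000467 and 0.000263). The ATP synthase subunit Atp5g3 fell by 0.71 (adjusted p = 0.00376). Timm17a, a subunit of the inner membrane import channel, was 152 ± 4.11 in 9mCON, 161 ± 13.5 in 9mTSCmKO and 99.7 ± 8.05 CPM in 9mTSCmKO+RM (log2 fold change -0.61, adjusted p = 1.19e-07).

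Mitochondrial ribosomal proteins had 15 of 78 lower (19.2%, against 16.2% of all genes) and 5 higher (6.41%, against 15.7%), 12 of them overshoot genes (8.75% of all genes were). Mrps30 and Mrpl9 were higher by 0.84 and 0.71 (adjusted p = 1.9e-06 and 2.39e-05), whereas Mrpl42 and Mrpl36 fell by 0.65 and 0.58 (adjusted p = 0.00218 and 0.000136). Genes of the TCA cycle, pyruvate and branched-chain catabolism were lower for 19 of 48 and higher for 4 (median -0.19). Idh3a, a subunit of isocitrate dehydrogenase, was at 1085 ± 187 CPM in 9mCON and 617 ± 42.7 CPM in 9mTSCmKO+RM (log2 fold change -0.81, adjusted p = 9.18e-07). Bcat2 and Ivd, which break down branched-chain amino acids, fell by 0.77 and 0.92 (adjusted p = 0.000419 and 4.12e-06), and both were also low in 9mCON+RM, at 41.2 ± 9.02 and 85.7 ± 9.91 CPM. Mss51, a mitochondrial protein of fast fibers, was at 43.5, 168, 40.3, 64.4 and 127 CPM in 9mCON and 14.8, 14.1, 8.27, 14.7 and 6.89 CPM in 9mTSCmKO+RM, without overlap but with a wide control range (log2 fold change -2.92 ± 0.79 SE, adjusted p = 0.00446).

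Sterol and fatty acid synthesis genes under SREBP, a transcription factor activated by mTORC1, were lower for 13 of 40 and higher for 3 (median -0.26). The desaturases Fads1 and Scd2 each fell by 1.08 on the log2 scale (adjusted p = 0.000154 and 0.00149). Cyp51, a demethylase of cholesterol synthesis, was an exception with a rise from 6.34 ± 0.67 to 15.8 ± 2.19 CPM (log2 fold change 1.32, adjusted p = 1.11e-09). Srebf1 itself fell by 0.44 (adjusted p = 0.0255), and this call was lost without 9mCON replicate 5 (adjusted p = 0.0988).

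**Figure D3:**
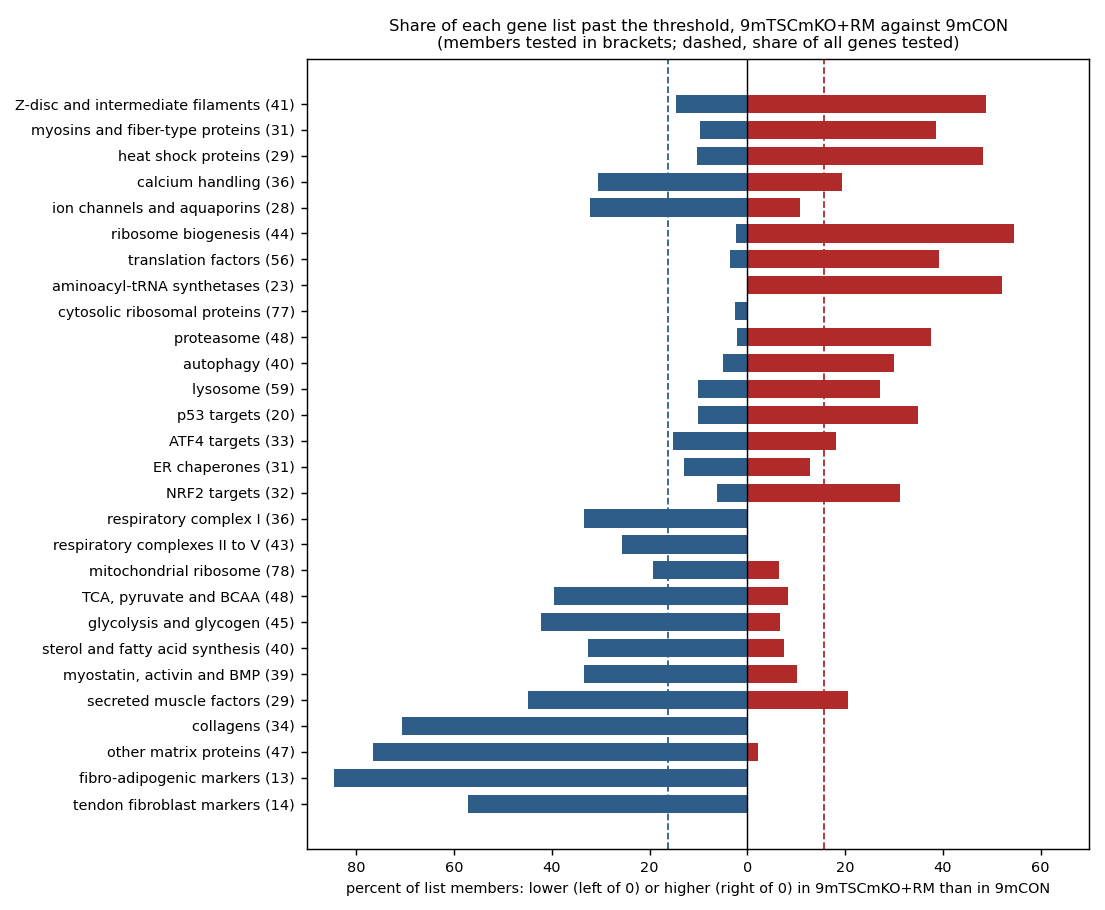
Percent of the tested members of 28 gene lists that were higher (red, right of 0) or lower (blue, left of 0) in 9mTSCmKO+RM than in 9mCON, with the number tested in brackets; dashed lines mark the share of all genes tested, 15.7% higher and 16.2% lower. Ribosome biogenesis, aminoacyl-tRNA synthetases, Z-disc and heat shock lists reached furthest to the right, and matrix lists and fibro-adipogenic and tendon markers furthest to the left.

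Other lists that held many higher genes in the vehicle-treated knockout held fewer after rapamycin when set against 9mCON. Of 33 targets of ATF4, the transcription factor of the integrated stress response, 19 were higher and 3 lower in 9mTSCmKO than in 9mCON (median 0.76), where 19.1% of all genes were higher and 18.9% lower. In 9mTSCmKO+RM 6 were higher (18.2%, against 15.7% of all genes) and 5 lower (15.2%, against 16.2%), with a median of 0.00, and 20 were lower in 9mTSCmKO+RM than in 9mTSCmKO, as 16.8% of all genes were. Set against 9mCON+RM, however, 11 of the 33 were higher (11.3% of all genes were) and 4 lower (9.33%), with a median of 0.44. The median of the list in 9mCON+RM against 9mCON was -0.24. The 6 that were higher after rapamycin included Slc7a5, Mthfd2, Sesn2 and Slc6a9 (log2 fold change 1.39, adjusted p = 2.53e-06), a glycine transporter that has 26.1% of its 31-mers in common with Ccdc24. Psph, an enzyme of serine synthesis, was 12.6 ± 2.51 in 9mCON, 12.2 ± 0.344 in 9mTSCmKO and 5.57 ± 0.872 CPM in 9mTSCmKO+RM, a fall below control (log2 fold change -1.18, adjusted p = 4.34e-08). The letters TGATGNAA, an amino acid response type motif, were on either strand in a promoter window of 10 of the 30 ATF4 list genes with windows (33.3%) and of 2.84% of the 10375 genes tested with windows. Of the 10, 5 were higher and 2 lower in 9mTSCmKO than in 9mCON, and 0 were higher and 2 lower in 9mTSCmKO+RM.

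Targets of NRF2, the antioxidant transcription factor, had 22 of 32 higher in 9mTSCmKO (19.1% of all genes were) and 10 higher in 9mTSCmKO+RM (15.7% of all genes), with 3 and 2 lower. Set against 9mCON+RM, 9 were higher (11.3% of all genes were) and 2 lower (9.33%), with a median of 0.17. Srxn1, which repairs peroxiredoxins, was 26.5 ± 4.97 in 9mCON, 102 ± 22.1 in 9mTSCmKO and 53.9 ± 12.9 CPM in 9mTSCmKO+RM (log2 fold change 1.02, adjusted p = 0.00049). Gsta4, a glutathione transferase, was below control after rapamycin (10.9 ± 1.61 against 17.4 ± 2.95 CPM, log2 fold change -0.68, adjusted p = 0.00321), and so was the transporter gene Abcc4 (log2 fold change -0.72, adjusted p = 9.12e-05). The level of Nfe2l2, which encodes NRF2, did not pass (log2 fold change 0.26, adjusted p = 0.0997).

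Endoplasmic reticulum chaperones had 15 of 31 genes higher in 9mTSCmKO (19.1% of all genes were). In 9mTSCmKO+RM 4 were higher and 4 lower (12.9% each, against 15.7% and 16.2% of all genes). Hspa5, the chaperone BiP, was at 226, 268, 256, 245 and 234 CPM in 9mCON and 161, 175, 176, 179 and 173 CPM in 9mTSCmKO+RM. These did not overlap, with treated knockout below control (log2 fold change -0.51 ± 0.12 SE, adjusted p = 0.00103), whereas 9mTSCmKO was at 425 ± 66.4 CPM and 9mCON+RM at 184 ± 13.6 CPM. Sdf2l1 and Manf, induced with Hspa5 in the unfolded protein response, fell by 0.79 and 0.64 (adjusted p = 0.0075 and 0.00686), the second call being lost without 9mCON replicate 2 (adjusted p = 0.0548). P4hb, a disulfide isomerase, rose by 0.57 (adjusted p = 0.000146).

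**Figure D4:**
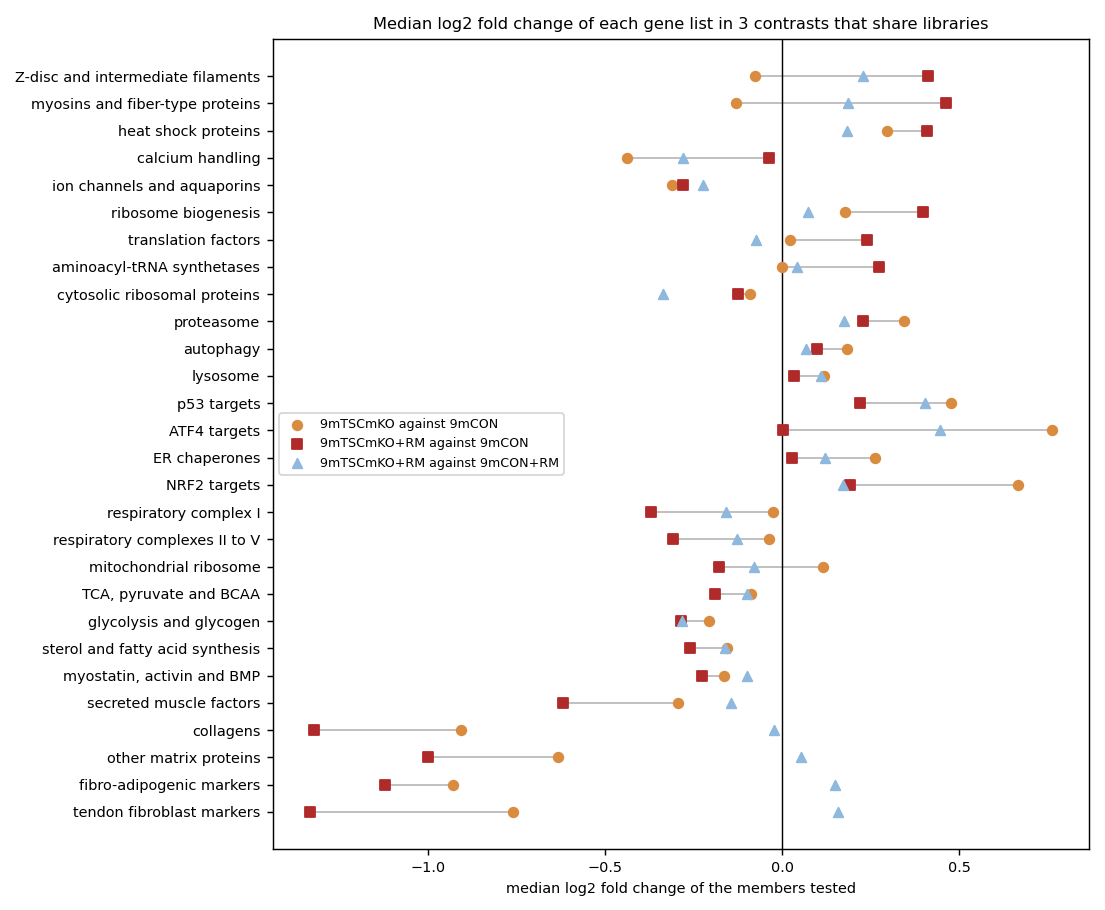
Median log2 fold change of the tested members of 28 gene lists in 9mTSCmKO against 9mCON (circles), 9mTSCmKO+RM against 9mCON (squares) and 9mTSCmKO+RM against 9mCON+RM (triangles); the contrasts share libraries. ATF4 and NRF2 lists moved from 0.76 and 0.67 to 0.00 and 0.19 against 9mCON, and lay at 0.44 and 0.17 against 9mCON+RM. Collagens lay at -0.91, -1.32 and -0.02 in the same order of contrasts.

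Proteasome and autophagy genes were more often higher than lower. Proteasome genes were higher for 18 of 48 and lower for 1 (median 0.23). Psmd4, the ubiquitin receptor of the regulatory particle, was 159 ± 10.6 in 9mCON, 223 ± 37.6 in 9mTSCmKO, 270.3 ± 48.9 in 9mCON+RM and 393 ± 54 CPM in 9mTSCmKO+RM (log2 fold change 1.31, adjusted p = 2.98e-10 against 9mCON), and Psmd11 rose by 1.06 (adjusted p = 1.68e-09). Autophagy genes were higher for 12 of 40 and lower for 2, among them Atg7 (log2 fold change 0.74, adjusted p = 5.03e-05), Gabarapl1 (log2 fold change 0.65, adjusted p = 4.19e-05) and Map1lc3a (log2 fold change 0.61, adjusted p = 0.00147). Gabarapl1 has 25.2% of its 31-mers in common with 1700101I11Rik. Ulk1, the kinase that starts autophagy, did not pass (log2 fold change -0.18, adjusted p = 0.361).

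Lysosomal genes were higher for 16 of 59 (27.1%, against 15.7% of all genes) and lower for 6 (10.2%, against 16.2%), and without 9mCON replicates 1 and 5 the higher count was 10. Hexa, a lysosomal hexosaminidase, was at 40.2 ± 3.43 CPM in 9mCON and 112 ± 14.7 CPM in 9mTSCmKO+RM (log2 fold change 1.47 ± 0.12 SE, adjusted p = 3.38e-12), a gene that has 11.4% of its 31-mers in common with the overlapping gene Tmem202. Gpnmb, a lysosomal membrane glycoprotein, dropped from 39.9 ± 12.2 CPM in 9mTSCmKO to 8.94 ± 1.99 CPM, still above 4.01 ± 2.05 CPM in 9mCON (log2 fold change 1.13, adjusted p = 0.00423). The letters TCACGTGA, an E-box type that TFEB family factors are known to bind and that reads the same on both strands, were in a promoter window of 8 of 46 lysosomal genes with windows (17.4%) and of 2.14% of all genes with windows. Of the 8, 3 were higher, 0 lower and 5 did not pass. One of the 3, Ctsd, the protease cathepsin D, was named after its value was seen, and is shown because the motif can be read in place. The stretch at chr7:142387908-142387937, minus strand, reads 5′ to 3′, with the motif in capitals, as follows.
Ctsd: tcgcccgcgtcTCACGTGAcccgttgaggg
Ctsd was at 518 ± 70.2 CPM in 9mCON and 832 ± 82.4 CPM in 9mTSCmKO+RM (log2 fold change 0.68 ± 0.12 SE, adjusted p = 3.42e-05). Tfeb itself did not pass (log2 fold change -0.19, adjusted p = 0.204).

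Targets of p53 were higher for 7 of 20 and lower for 2. The death receptor gene Eda2r was at 18.6 ± 6.34 CPM in 9mCON and 80.5 ± 22.9 CPM in 9mTSCmKO+RM (log2 fold change 2.11, adjusted p = 7.88e-07), and the apoptosis genes Pmaip1 and Bbc3 rose by 2.72 and 1.81 on the log2 scale (adjusted p = 2.69e-05 and 3.32e-05), from means of 0.295 and 1.6 CPM in 9mCON. Without 9mCON replicate 4 the log2 fold change of Pmaip1 was 3.37.

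The IIB myosin and the calcium release channel did not differ detectably from control after rapamycin. Myh4, which encodes that myosin, was at 38300, 28300, 51400, 41200 and 53900 CPM in 9mCON and 42200, 54000, 66900, 55300 and 45000 CPM in 9mTSCmKO+RM. The ranges overlapped and no difference was detected (log2 fold change 0.30 ± 0.21 SE, adjusted p = 0.289), although 9mTSCmKO lay at 20876 ± 4993 CPM (log2 fold change -1.03, adjusted p = 0.000196 against 9mCON). Myh1, the IIX myosin, was above control (log2 fold change 0.67, adjusted p = 0.0136), which missed the threshold when 9mCON replicate 1 was left out (adjusted p = 0.0527). Myosin genes share 31-mers (30% of Myh4 and 42.6% of Myh1), so reads can be split among them. Ryr1, the calcium release channel, was at 429, 419, 719, 705 and 1180 CPM in 9mCON and 555, 764, 1020, 662 and 647 CPM in 9mTSCmKO+RM, again overlapping (log2 fold change 0.08 ± 0.22 SE, adjusted p = 0.833). It was 338 ± 134 CPM in 9mTSCmKO (log2 fold change -1.03, adjusted p = 0.000408 against 9mCON).

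Denervation genes were higher for 8 of 25 (32%, against 15.7% of all genes) and lower for 5 (20%, against 16.2%). Without 9mCON replicates 1 and 5 the higher count was 4 of the 25. Chrng, the fetal acetylcholine receptor subunit that reappears in denervated muscle, was 3.32 ± 2.45 in 9mTSCmKO and 0.342 ± 0.133 CPM after rapamycin, against 0.12 ± 0.0884 CPM in 9mCON, which did not pass (log2 fold change 1.41, adjusted p = 0.118). Atrophy ubiquitin ligases had 4 of 23 higher and 4 lower (17.4% each), near the 15.7% and 16.2% of all genes. Trim55, a sarcomeric ring finger protein, fell by 1.07 (adjusted p = 7.28e-10), and Asb2 and Asb14, subunits of ubiquitin ligases, fell by 1.23 and 1.20 (adjusted p = 6.67e-08 and 1.68e-10). Nedd4, a ubiquitin ligase, rose by 0.57 (adjusted p = 0.00389). Neuromuscular junction organisers had 6 of 27 higher (22.2%, against 15.7% of all genes) and 3 lower (11.1%, against 16.2%).

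Satellite cell markers had 2 of 11 higher (18.2%, against 15.7% of all genes) and 0 lower, with a median log2 fold change of 0.03. The 2 were the cadherin gene Cdh15, at 16.5 ± 3.64 CPM in 9mCON and 33.8 ± 2.65 CPM in 9mTSCmKO+RM (log2 fold change 1.03, adjusted p = 3.72e-06), and the integrin gene Itga7, at 79.9 ± 15.1 CPM in 9mCON and 156 ± 17 CPM in 9mTSCmKO+RM (log2 fold change 0.96, adjusted p = 1.28e-05), both overshoot genes. Pax7, the defining factor of satellite cells, did not pass (log2 fold change 0.55, adjusted p = 0.104). In 9mCON+RM, Cdh15 was at 37.5 ± 3.76 and Itga7 at 116 ± 8.1 CPM, and neither passed against that group (log2 fold change -0.15, adjusted p = 0.559, and 0.43, adjusted p = 0.0512). The summed level of the list was 175 to 225 CPM in 9mCON, 212 to 260 CPM in 9mCON+RM, 190 to 237 CPM in 9mTSCmKO and 261 to 308 CPM in 9mTSCmKO+RM, and Cdh15 and Itga7 are part of that sum.

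Extracellular matrix genes were mostly lower in 9mTSCmKO+RM than in 9mCON. Of 34 collagens tested, 24 were lower and 0 higher (median -1.32), and of 47 other matrix and remodelling genes 36 were lower and 1 higher (median -1.0). In 9mTSCmKO against 9mCON, 19 collagens and 21 of the other matrix genes were lower and 1 and 4 higher, and 9 of the 13 fibro-adipogenic progenitor markers were lower. Col1a1, the main fibrillar collagen, was at 189, 87.5, 199, 116 and 318 CPM in 9mCON and 36.1, 30.8, 54.5, 37.4 and 44.5 CPM in 9mTSCmKO+RM. All treated knockout values lay under control (log2 fold change -2.16 ± 0.46 SE, adjusted p = 0.000461), but so did 9mCON+RM at 45.1 ± 26.2 CPM, from which 9mTSCmKO+RM did not differ detectably (log2 fold change -0.15, adjusted p = 0.868). Fmod, the collagen-binding fibromodulin, was at 80.7, 41.3, 46.9, 33.4 and 277 CPM in 9mCON and 11.1, 5.82, 30.7, 9.72 and 7.93 CPM in 9mTSCmKO+RM (log2 fold change -2.87 ± 0.62 SE, adjusted p = 0.000548), with 9mCON replicate 5 far above the rest. Its log2 fold change was -1.93 without that library and -3.48 without 9mTSCmKO+RM replicate 3. Fbn1, fibrillin of elastic microfibrils, fell by 1.74 (adjusted p = 0.000106), and Fn1, fibronectin, by 1.23 (adjusted p = 0.0148), which missed the threshold when 9mCON replicate 5 was left out (adjusted p = 0.131).

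Against 9mCON+RM, 4 collagens were lower and 2 higher (median -0.02), and 0 of the other matrix genes were lower and 5 higher. The median of collagens in 9mCON+RM against 9mCON was -1.18. Col9a1 (log2 fold change -3.76, adjusted p = 7.48e-09 against 9mCON) and Col11a2 (log2 fold change -1.97, adjusted p = 4.94e-07), cartilage-type collagens, also passed against 9mCON+RM (log2 fold change -1.84, adjusted p = 0.00314 and -0.84, adjusted p = 0.0262). Without 9mCON replicates 1 and 5, 14 collagens and 13 other matrix genes were lower.

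Markers of connective tissue cells were also mostly lower. These lists are not separate from the matrix genes, since tendon markers such as Fmod, Comp, Chad and Kera are matrix genes themselves. The tendon and fibro-adipogenic lists also share members, so the likeness of these results was partly fixed in advance. Tendon fibroblast markers were lower for 8 of 14 tested and higher for 0, with summed levels of 690 to 1520 CPM in 9mCON, 142 to 536 CPM in 9mCON+RM, 328 to 787 CPM in 9mTSCmKO and 335 to 609 CPM in 9mTSCmKO+RM. Tnmd, tenomodulin of tendon, was at 5.31, 3.55, 3.49, 3.11 and 12.5 CPM in 9mCON and 0.626, 0.634, 1.47, 1.1 and 0.549 CPM in 9mTSCmKO+RM, without overlap (log2 fold change -2.67 ± 0.59 SE, adjusted p = 0.000624). Comp, Chad and Kera, further tendon matrix genes, fell by 2.84, 3.33 and 3.74. The calls of Comp and Chad (adjusted p = 0.00304 and 0.00192 with all libraries) were lost without 9mCON replicate 5 (log2 fold change -1.49 and -1.83, adjusted p = 0.0950 and 0.0612), and without 9mTSCmKO+RM replicate 3 Chad was at -4.28. Fibro-adipogenic progenitor markers were lower for 11 of 13, with summed levels of 1190 to 2100 CPM in 9mCON, 258 to 964 CPM in 9mCON+RM, 450 to 1020 CPM in 9mTSCmKO and 542 to 1050 CPM in 9mTSCmKO+RM, among them Smoc2 (log2 fold change -1.27, adjusted p = 7.45e-05) and Gsn (log2 fold change -1.35, adjusted p = 0.00161). Pdgfra, their defining receptor, differed by -0.75 on the log2 scale (adjusted p = 0.0384), a difference that missed the threshold without 9mCON replicate 5 (adjusted p = 0.242). Without 9mCON replicates 1 and 5, 4 tendon and 7 fibro-adipogenic markers were lower. The part of these cells in the matrix result was not tested.

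**Figure D5:**
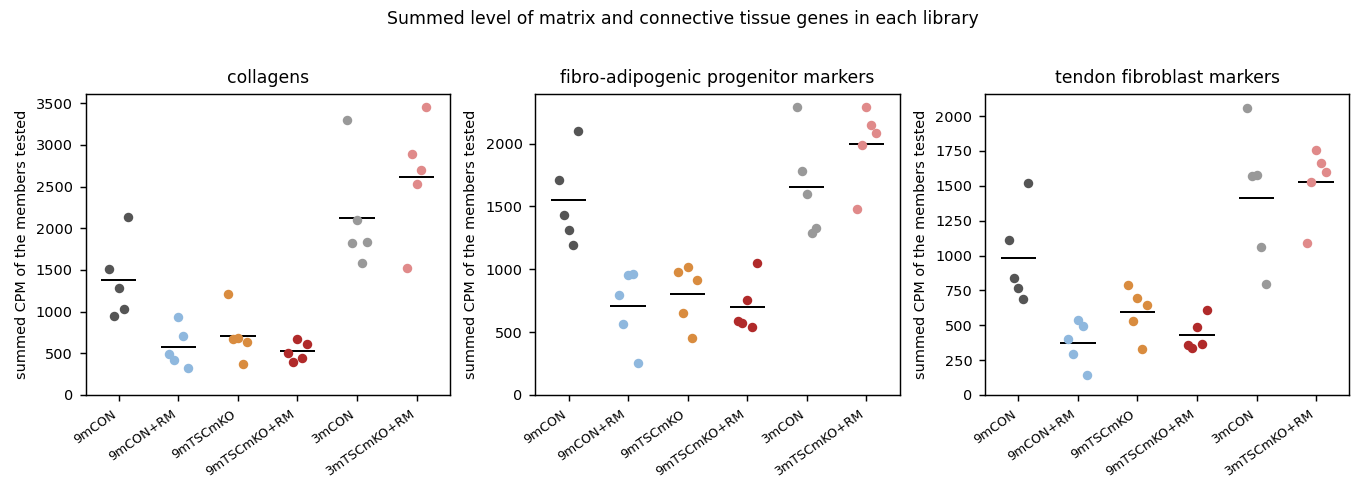
Summed CPM of the tested collagens, fibro-adipogenic progenitor markers and tendon fibroblast markers in each library of 6 groups; points are libraries and lines are group means. In 9mTSCmKO+RM the collagens summed to 398 to 669 CPM against 948 to 2130 CPM in 9mCON, whereas 9mCON+RM reached 325 to 935 CPM.

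Of other cell types, macrophage markers were lower for 6 of 19 and higher for 0, with sums of 153 to 361 CPM in 9mCON and 161 to 200 CPM in 9mTSCmKO+RM, and without 9mCON replicates 1 and 5 none was lower and 2 were higher. Against 9mCON+RM, with sums of 79.8 to 173 CPM, 6 were higher and 0 lower (median 0.82). The defining marker Cd68 did not pass (log2 fold change 0.92, adjusted p = 0.103). The macrophage receptor genes Csf1r and Cd163 fell by 1.20 and 1.27, calls lost without 9mCON replicate 5 (adjusted p = 0.133 and 0.191). Erythroid markers were lower for 3 of 8, Hbb-bt, a beta globin, among them (log2 fold change -2.08, adjusted p = 0.0438), which has 59.4% of its 31-mers in common with Hbb-bs. Without 9mCON replicate 1 its log2 fold change was -0.71 and its adjusted p was 0.505, and without replicates 1 and 5 none of the list passed in either direction (edgeR). Endothelial markers were lower for 2 of 15 (13.3%), pericyte and smooth muscle markers for 1 of 11 (9.09%), Schwann cell markers for 2 of 13 (15.4%) and lymphocyte markers for 0 of 4, with none higher. These shares lie below the 16.2% of all genes that were lower. Adipocyte markers had 2 of 11 higher (18.2%, against 15.7% of all genes) and 1 lower (9.09%).

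The same contrast at 3 months (3mTSCmKO+RM against 3mCON, 5 libraries each) allowed a test of whether the difference left under rapamycin varied with age. The interaction passed for 234 genes (1.73%), 87 with a more positive (0.642%) and 147 with a more negative (1.09%) difference at 9 months. With limma on log2(TPM + 1) the share of more positive genes among those passing was 52.2%, against 37.2% with edgeR, and the count was 56 without 9mCON replicates 1 and 5. The log2 fold change of Myl2 was 3.52 at 9 months and 0.70 at 3 months (difference 2.82 ± 0.63 SE, adjusted p = 0.0184), and that of Atp2a2 was 3.57 and 1.18 (difference 2.39, adjusted p = 0.00585). Dkk3 was at -4.69 and -3.08 (difference -1.61, adjusted p = 0.0232). Of the 34 collagens, 11 had a more negative difference at 9 months, and of the 47 other matrix genes 15 did. Col1a1 was at -2.16 at 9 months and 0.56 at 3 months (difference -2.72, adjusted p = 0.0232). Summed tendon markers were 799 to 2060 CPM in 3mCON and 1090 to 1760 CPM in 3mTSCmKO+RM. By the labels, the 2 groups of 3 months had insert sizes of 179 to 239 nt and those of 9 months had 223 to 302 nt, where 9mTSCmKO+RM replicate 5 has none. With insert size as a term and that library left out, 258 genes differed between ages, against 247 with that library left out and no such term.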

How the data were processed

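Extensor digitorum longus RNA of 40 libraries in 8 groups was sequenced by the authors with a stranded, single-end protocol. Per the labels, reads were trimmed with Cutadapt 1.9.1 and quantified with kallisto 0.43.1 on GRCm38, and the authors deposited estimated counts and TPM per gene. The transcript set is uncertain because the sources name different ones.

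Here estimated counts were rounded and genes with at least 1 CPM in at least 5 libraries kept. Counts were scaled with TMM and tested with edgeR 4.0.16 (quasi-likelihood test, 8 groups in 1 fit, Benjamini-Hochberg adjusted p under 0.05). Alternatives used limma 3.58.1 on TPM and DESeq2 1.42.0. Intervals and p-values cover the spread between these libraries.

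Named genes were Tsc1, the 12 largest rises and falls and the 8 largest overshoot rises and falls without overlap and with at least 5 CPM in the higher group, and, of each of 53 lists, the first member and up to 4 members past the threshold by size of change with at least 2 CPM. Of 253 genes chosen this way, 169 are described here. Dnajb6, Ctsd, Car3 and Lep were named after their values were seen. Members and lists were chosen with earlier results of these data known. The procedure was tested on simulated data. In no pair of groups did all same-numbered libraries correlate above 0.1, so replicate numbers were not read as pairs. Gene positions and shared 31-mers are from the reference transcripts. Psmd11, Bcat2, Eif5b, Eif1 and Csf1r, reported without remark, share 14.5% to 15.7% of their 31-mers with other genes.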

Additional observations from a re-analysis of the deposited data

Results flagged for a closer look

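Of 144 sets of 5 library values looked at, 13 held a library far from the other 4, where chance alone marks about 1 set in 20. Tsc1 was at 25.7 CPM in 9mTSCmKO+RM replicate 3 (others 17.8 to 19.6 CPM) and Ankrd1 was at 261 CPM in 9mCON+RM replicate 3 (others 32.1 to 57.2 CPM). Csrp3 was at 166 CPM in 9mCON+RM replicate 3 (others 20 to 41.3 CPM) and Cxcl10 was at 1.73 CPM in 9mTSCmKO replicate 3 (others 0.052 to 0.404 CPM). Amd1 was at 626 CPM in 9mTSCmKO replicate 5 (others 262 to 362 CPM) and Pfkfb3 was at 608 CPM in 9mCON+RM replicate 5 (others 206 to 235 CPM). Gadd45g was at 13.7 CPM in 9mCON+RM replicate 5 (others 19.2 to 20.5 CPM) and Gadd45g was at 21.9 CPM in 9mTSCmKO+RM replicate 1 (others 12.3 to 13.9 CPM). Col1a1 was at 217 CPM in 9mTSCmKO replicate 1 (others 25.3 to 58.8 CPM) and Fmod was at 277 CPM in 9mCON replicate 5 (others 33.4 to 80.7 CPM). Fmod was at 30.7 CPM in 9mTSCmKO+RM replicate 3 (others 5.82 to 11.1 CPM) and Tnmd was at 12.5 CPM in 9mCON replicate 5 (others 3.11 to 5.31 CPM). Tnmd was at 1.74 CPM in 9mCON+RM replicate 3 (others 0.206 to 0.602 CPM). Replicate 3 of 9mCON+RM held the high value of both Ankrd1 and Csrp3 and of Tnmd, and 9mCON replicate 5 held those of Fmod and Tnmd.

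For 20 named genes the difference of TSCmKO+RM from CON itself differed between 9 and 3 months (edgeR interaction, adjusted p under 0.05). The difference between ages on the log2 scale was 2.82 for Myl2 (3.52 at 9 and 0.70 at 3 months), 2.39 for Atp2a2 (3.57 at 9 and 1.18 at 3 months) and 1.71 for Rab15 (4.46 at 9 and 2.75 at 3 months). It was -1.61 for Dkk3 (-4.69 at 9 and -3.08 at 3 months), -1.50 for Nrep (-3.33 at 9 and -1.83 at 3 months) and -2.21 for Fam174b (-2.84 at 9 and -0.63 at 3 months). Next to these it was -0.83 for Asb2 (-1.23 at 9 and -0.40 at 3 months), -1.53 for Ctsk (-1.51 at 9 and 0.02 at 3 months) and -2.72 for Col1a1 (-2.16 at 9 and 0.56 at 3 months). Likewise it was -1.51 for Col11a2 (-1.97 at 9 and -0.45 at 3 months), -1.97 for Col14a1 (-1.97 at 9 and 0.00 at 3 months) and -1.83 for Fbn1 (-1.74 at 9 and 0.09 at 3 months). It amounted to -1.70 for Efemp1 (-1.63 at 9 and 0.06 at 3 months), -4.01 for Kera (-3.74 at 9 and 0.27 at 3 months) and -1.82 for Gsn (-1.35 at 9 and 0.47 at 3 months). Further values were -1.24 for Smoc2 (-1.27 at 9 and -0.03 at 3 months), -1.51 for Mfap5 (-1.30 at 9 and 0.22 at 3 months) and -2.16 for C1qb (-1.12 at 9 and 1.05 at 3 months). The remaining values were -1.80 for Igfbp6 (-1.67 at 9 and 0.13 at 3 months) and 0.49 for Dnajb6 (0.43 at 9 and -0.06 at 3 months). Genes of matrix, connective tissue cells and complement made up most of the more negative ones, and 9mCON replicates 1 and 5 held the highest summed levels of such markers. Without those libraries, 56 genes in all differed between ages.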

How the results depend on the processing

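The number of genes that differed between 9mTSCmKO+RM and 9mCON (4318) was 3748 to 4286 without 1 library and stayed within 1.5 times under each other setting run. The ranges without 1 library were 4504 to 5256 for 9mTSCmKO against 9mCON, 3734 to 4515 within the knockout, 2269 to 2902 against 9mCON+RM, 1976 to 2377 for left abnormal genes and 975 to 1256 for overshoot genes. With only the groups compared in the fit, these were 2710 genes for 9mTSCmKO against 9mCON, 2514 within the knockout, 1349 left abnormal and 638 overshoot. With only the 20 libraries of 9 months, 1857 genes differed from 9mCON+RM and 726 were overshoot. A smaller fit has fewer libraries from which to estimate the spread.

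The difference between ages (234 genes) was the least stable count: 427 with DESeq2, 132 with no filter on low counts, 373 with only the groups compared, 111 with limma on log2(TPM + 0.1), 56 without 9mCON replicates 1 and 5, chosen after seeing the data, and 66 to 289 without 1 library, being 111 and 66 without 9mTSCmKO+RM replicates 2 and 4, 148 and 96 without 3mCON replicates 2 and 4, and 139 and 97 without 3mTSCmKO+RM replicates 2 and 5. The cause was not tested.

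The replicate block gave 4349 genes for the main contrast, and same-numbered libraries of the 2 groups correlated at -0.0473 to 0.0881, so the numbers were not read as pairs. For 9mCON+RM with 9mTSCmKO+RM they were 0.412, 0.140, 0.247, -0.0122 and -0.147 for replicates 1 to 5, and the block gave 2854 genes in place of 2795. Of 161 named genes past the threshold, 147 passed under each alternative run and 14 were lost without at least 1 library. Ryr1, which did not pass (0.08), ranged from -0.072 to 0.371 on the log2 scale without 1 library, below 0 without 9mCON replicates 1 (-0.054) or 2 (-0.058) or 9mTSCmKO+RM replicate 3. Depth of 12234422 counts or more limits genes near 1 CPM most.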

Other observations

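Genes of the circadian clock were lower for 5 of 20 tested (25%, against 16.2% of all genes) and higher for 2 (10%, against 15.7%) in 9mTSCmKO+RM than in 9mCON. Npas2, a partner of BMAL1, was at 3.21 ± 0.661 CPM in 9mCON and 1.15 ± 0.346 CPM in 9mTSCmKO+RM (log2 fold change -1.47, adjusted p = 0.00801), and Bhlhe40, a repressor of the clock, at 176 ± 49.3 CPM in 9mCON and 83.9 ± 23.3 CPM in 9mTSCmKO+RM (log2 fold change -1.07, adjusted p = 0.00346). The repressor Cry2 rose by 0.95 (adjusted p = 9.43e-06), and Arntl, which encodes BMAL1, did not pass (log2 fold change -0.22, adjusted p = 0.503). Glucocorticoid receptor targets were lower for 5 of 19 (26.3%), among them the kinase gene Sgk1 (log2 fold change -1.11, adjusted p = 0.000167), and higher for 1 (5.26%).

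Interferon-stimulated and MHC class I genes were lower for 6 of 39 (15.4%, against 16.2% of all genes) and higher for 1, and in 9mTSCmKO against 9mCON 3 were lower (18.9% of all genes were) and 12 higher (19.1%). Proliferation genes were lower for 6 of 26 tested (23.1%) and higher for 3 (11.5%), and 12 of the 38 in the table did not reach the CPM minimum. Beside 16.2% of all genes lower and 15.7% higher, nucleotide synthesis had 7 of 29 lower (24.1%) and 6 higher (20.7%). Fatty acid uptake and oxidation had 8 of 50 lower (16%) and 6 higher (12%), and mitochondrial import 5 of 48 lower (10.4%) and 4 higher (8.33%). Laminins and integrins had 7 of 30 lower (23.3%) and 4 higher (13.3%). Metallothioneins and zinc transporters had 5 of 22 lower (22.7%) and 3 higher (13.6%). Fast fiber markers were lower for 4 of 14 (28.6%) and higher for 1 (7.14%), with summed levels of 201000 to 212000 CPM in 9mCON and 183000 to 229000 CPM in 9mTSCmKO+RM. The sums were 130000 to 146000 CPM in 9mTSCmKO and 240000 to 255000 CPM in 9mCON+RM.

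Summed adipocyte markers were 1480 to 2200 CPM in 9mCON, 2280 to 4610 CPM in 9mTSCmKO and 3180 to 4020 CPM in 9mTSCmKO+RM, while the median log2 fold change of the 11 tested was -0.33. Car3, a carbonic anhydrase that slow muscle fibers also express, was higher by 1.96 on the log2 scale in 9mTSCmKO+RM than in 9mCON, and was named after its value was seen. The leptin gene Lep, named likewise, was lower by 2.15 (log2 fold change -2.15).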
